A study of Mus musculus with 30 samples.

Results

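The genes described here drive the cell cycle: they license and copy DNA, set the passage from G1 into S phase, and carry cells through mitosis. They were taken from a list of 59 gene symbols, of which 58 had a named probe set among the 15944 genes measured; Ccnb1 had none. The tissue was the dorsal pancreas of embryos of time-mated NMRI mice, dissected without the ventral bud and pooled by litter, at embryonic day 12.5 (e12.5), e13.5, e14.5, e15.5 and e16.5. The tissue was unsorted, and each labelled sample went onto chips A, B and C of the Affymetrix MG-U74v2 set, which made 30 arrays with 2 per stage and chip. The study describes 2 labelling reactions per pool, so the 2 arrays of a stage and chip were taken as reactions of 1 pool, which the labels do not state outright, and the number of litters per pool was not stated.

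Before a cell copies its DNA, the origin recognition complex, Cdc6 and Cdt1 load the Mcm helicase onto replication origins, and D-type and E-type cyclins with their kinases release E2F factors that switch on S phase genes. A later wave of genes, transcribed in G2, supplies the mitotic kinase Cdk1 with B-type cyclins, builds kinetochores and spindle, and ends mitosis through Cdc20 and the anaphase-promoting complex. In the embryonic pancreas, progenitors and early acinar cells divide, whereas endocrine cells leave the cell cycle when they form.

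Values are log2 expression values, so a difference of 1 is a 2-fold difference. The 2 arrays of a stage correlated at 0.996 to 0.998 over all probe sets of a chip. If they share a pool, as taken here, p-values of comparisons between stages measure only the technical spread between labelling reactions, and a stage cannot be told apart from its pool. In bulk tissue, fewer dividing cells and less RNA per dividing cell cannot be told apart. The arrays come without detection calls, and 4 of the 58 genes (Orc1, Tyms, Cdkn1b and Cdkn2c) did not lie above the median of their chip.

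Most cell cycle genes were lower in the e16.5 pool than at any earlier stage, and the inhibitor Cdkn1a was higher. On both e16.5 arrays, 48 of the 58 genes lay below all 8 earlier arrays, a measure added after the data were seen. The same held for 22.8% of all genes and for 30.4% of the genes above their chip's median. Cdkn1a was the 1 gene above all earlier arrays, where 18.5% of all genes were. The remaining 9 genes overlapped earlier arrays: Mcm6, Tyms, Ccnd1, Ccne1, Ccne2, E2f1, Cdkn1b, Cdkn2c and Cdc25b. The mean over the 58 genes was 7.11 and 7.09 on the e16.5 arrays, against 7.64 and 7.61 at e15.5, while the e12.5 arrays averaged 7.76 and 7.77. The pool with the highest mean was e12.5 for 30 genes, e13.5 for 2, e14.5 for 10, e15.5 for 13 and e16.5 for 3. Over all genes these shares were 27.4%, 12.4%, 11.3%, 14.2% and 34.6%. The pool with the lowest mean was e16.5 for 50, where 33.7% of all genes had theirs.

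**Figure D1:**
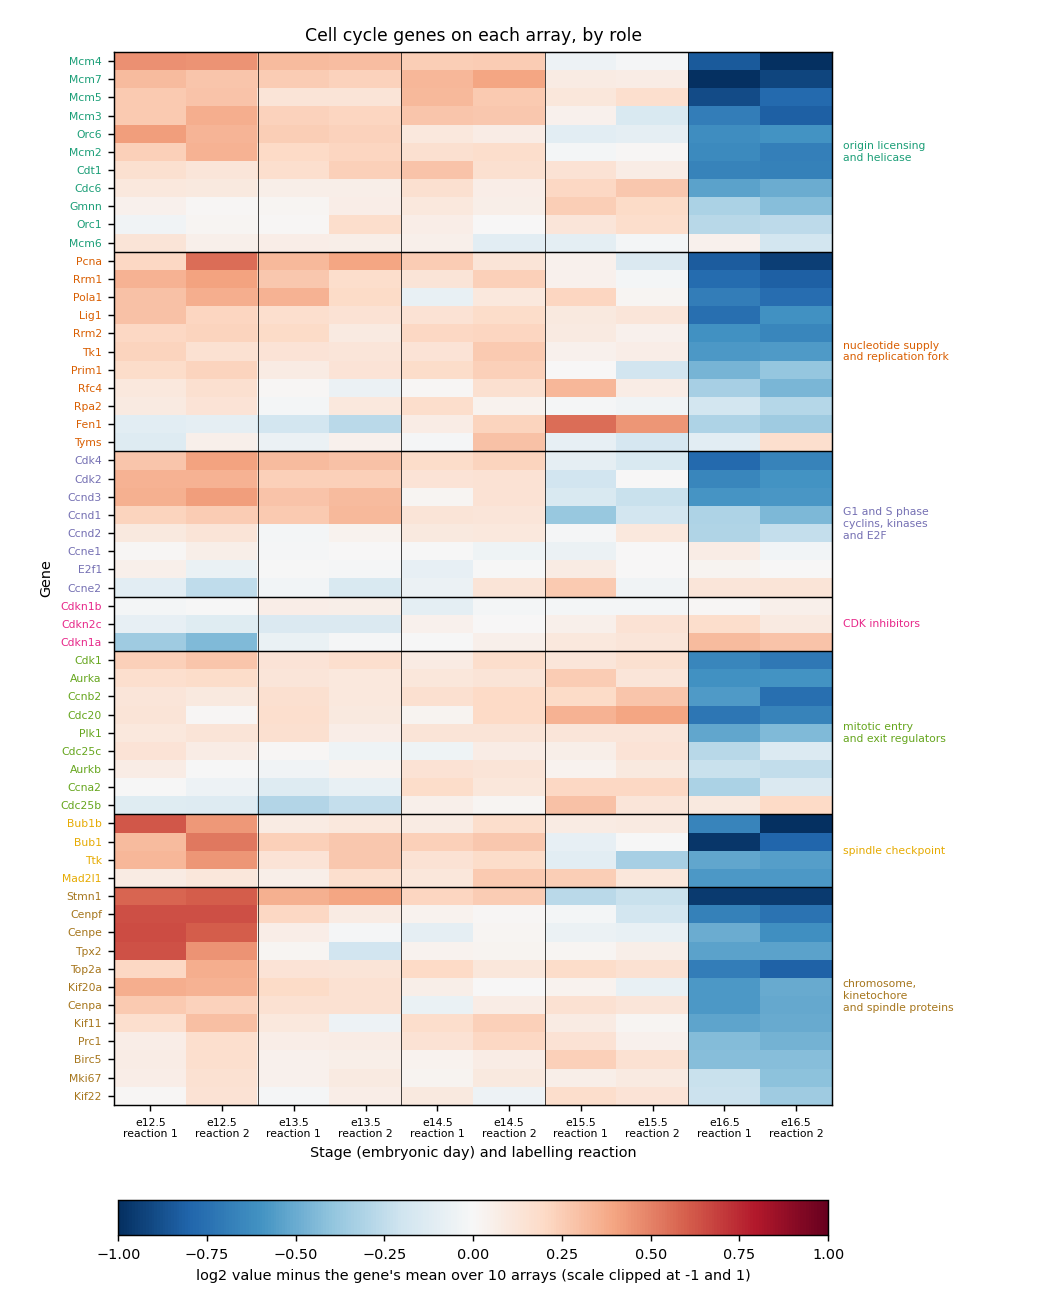
Log2 value of each of the 58 cell cycle genes (down the page, grouped and coloured by role) on each array (across, 5 stages with 2 labelling reactions each), minus the gene's mean over the 10 arrays of its chip, with the colour scale clipped at -1 and 1. The e16.5 columns are blue for most genes, and Cdkn1a runs the other way.

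Between e15.5 and e16.5 the median change of the 58 genes was -0.59, against -0.00 over all genes, and 52 of the 58 changes were negative, as were 50.8% of those of all genes. Calls between stages came from a limma contrast on the 10 arrays of a chip and needed a minimum fold as well as an adjusted p under 0.05. With a minimum of 1.5-fold, 30 were lower at e16.5 and 0 were higher; over all genes 2.38% were lower and 0.891% higher, and over genes above the chip median 3.41% were lower. The 30 changes ran from -1.06 to -0.59 with standard errors of 0.06 to 0.11 (limma adjusted p between 1.11e-06 and 0.000724). With a minimum of 2-fold, Cdc20 and Mcm7 were lower and 0 genes were higher, against 0.132% and 0.314% of all genes. When each chip was quantile-normalized again, 0 of the 58 were lower by 2-fold and 24 by 1.5-fold, against 0.107% and 1.86% of all genes. Among the 100 genes with the most negative last-day change of the 15944, 13 were of the 58, led by Cdc20 at rank 18, Mcm7 at 19, Mcm5 at 26 and Mcm4 at 32.

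**Figure D2:**
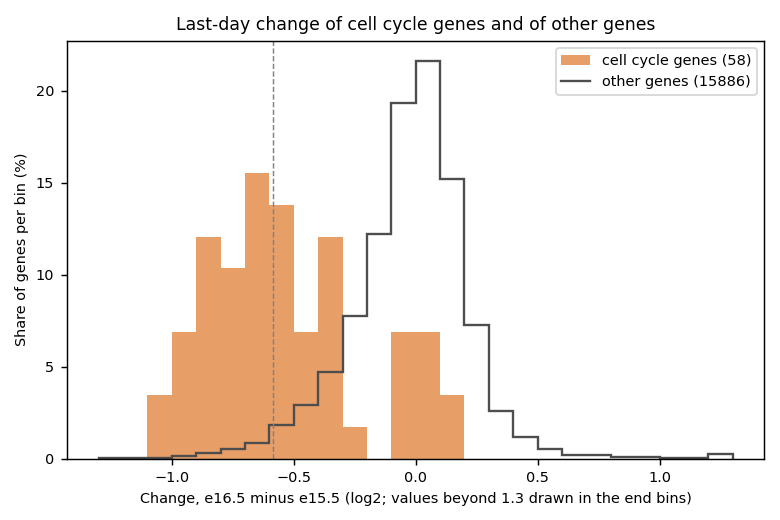
Share of genes (%, vertical axis) in bins of the change e16.5 minus e15.5 (log2, horizontal axis), for the 58 cell cycle genes (filled) and the other 15886 genes (line); the dashed line marks 1.5-fold lower. The cell cycle genes centre on -0.59 and the other genes near 0.

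Over all 5 stages, a line was fitted to the 5 pool means with limma, and the change is the slope times 4 days. By this stage trend 20 of the 58 genes fell and 2 rose at an adjusted p under 0.05, and 36 did not pass. Of all genes 17% fell and 11.9% rose, and of genes above the chip median 21.8% fell, both smaller shares than that of the cell cycle genes. The median fitted change was -0.59 for the 58 genes and 0.02 for all genes. Without the e16.5 pool 8 of the 58 fell (Pcna, Ttk, Ccnd3, Mcm4, Cdk2, Orc6, Stmn1 and Cenpf), where 8.14% of all genes did, the median was -0.13, and the single riser was Ccne2, where 4.73% of all genes rose. Without the e13.5 pool 12 fell and 1 rose, against 11.8% and 7.16% of all genes. Without the e12.5 pool 15 fell and 0 rose, against 12% and 6.38% of all genes. Among genes above the chip median the falling shares were larger. They were 10.4% without the e16.5 pool, 15.4% without the e13.5 pool and 15.8% without the e12.5 pool.

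Against e12.5, 15 of the 58 genes were lower at e16.5 by at least 2-fold and 0 were higher, where 4.25% of all genes were lower and 2.21% higher (limma). At 1.5-fold 36 were lower, where 12.5% of all genes were, and Cdkn1a was higher, where 5.68% were. In these 36 genes the last day held a median of 68.8% of the whole difference between e12.5 and e16.5. That median was 102% in the 5 mitotic regulators among them (over 100 where e15.5 lay above e12.5), 80.1% in the 7 fork genes and 75.9% in the 8 licensing genes. It was 65.8% in the 4 spindle checkpoint genes, 55.7% in the 8 chromosome and spindle genes and 47.9% in the 4 G1 genes, so the group medians differed in how much of the drop came before e15.5, a difference with no test. Both comparisons share the e16.5 arrays.

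**Figure D3:**
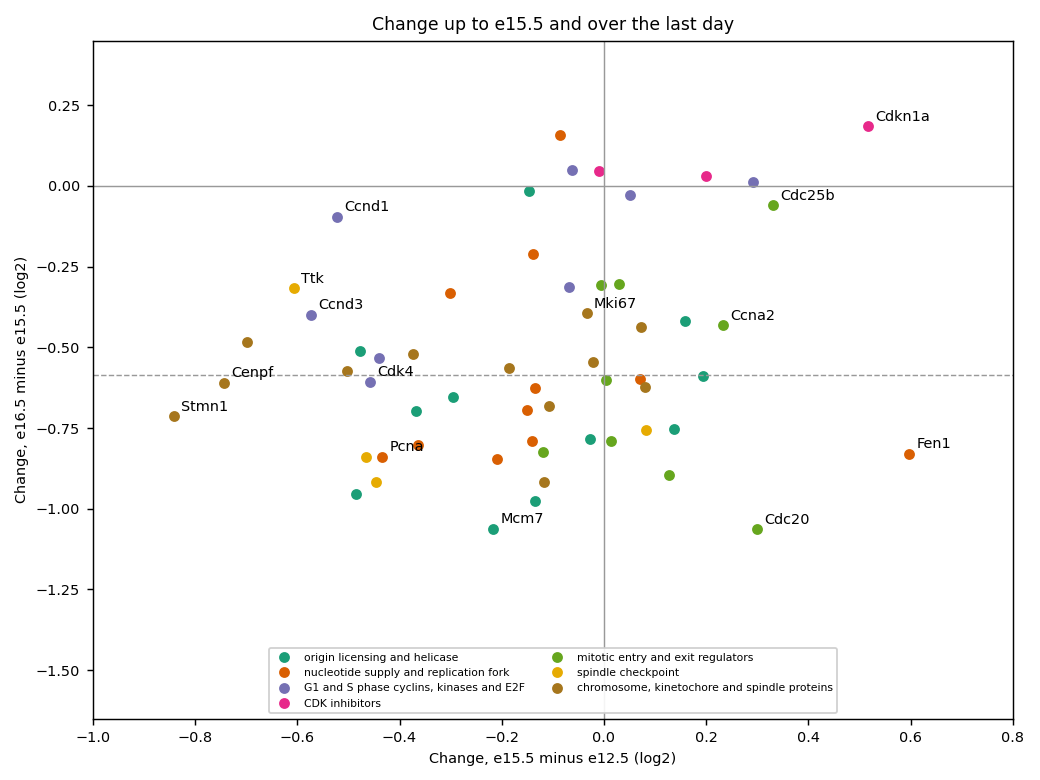
Change e16.5 minus e15.5 (log2, vertical axis) against change e15.5 minus e12.5 (log2, horizontal axis) for the 58 genes, each a point coloured by role, with pool means of 2 arrays; the dashed line marks 1.5-fold lower. Stmn1, Cenpf, Ccnd3 and Ttk lie to the left (lower before the last day), Cdc20 and Fen1 lie at the lower right (higher by e15.5, then lower), and Cdkn1a lies at the upper right.

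The promoters of 4 genes with large last-day changes are shown with that of Cdk4, a G1 kinase gene that also fell, because S phase and mitotic genes are known for particular short promoter words. They are examples and were not taken by rank. Among the 15944 genes ordered from the most negative last-day change, Cdc20 stood at 18, Mcm7 at 19, Ccnb2 at 48, Cdk1 at 85 and Cdk4 at 320. CCAAT boxes are bound by NF-Y, the word TTTGAA is the core of the cell cycle genes homology region found in many G2 and mitosis promoters, and E2F factors bind words such as TTTCCCGC, TTTCGCGC, TTTGGCGC and TTTGCCGC. Each line holds the 250 bases before the annotated start, from RefSeq on build GRCm38.p6 and written 5′ to 3′ along the gene's strand, and capitals mark matches to these words on either strand. The windows are chr4:118437344-118437593 for Cdc20, chr9:70421555-70421804 for Ccnb2, chr10:69352913-69353162 for Cdk1 and chr5:138171884-138172133 for Mcm7, all on the minus strand, and chr10:127063285-127063534 on the plus strand for Cdk4.
Cdc20: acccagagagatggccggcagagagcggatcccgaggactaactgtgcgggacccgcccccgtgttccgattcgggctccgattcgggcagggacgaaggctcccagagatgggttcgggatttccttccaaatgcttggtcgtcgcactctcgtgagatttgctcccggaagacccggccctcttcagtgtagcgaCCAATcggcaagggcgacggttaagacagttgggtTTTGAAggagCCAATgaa
Ccnb2: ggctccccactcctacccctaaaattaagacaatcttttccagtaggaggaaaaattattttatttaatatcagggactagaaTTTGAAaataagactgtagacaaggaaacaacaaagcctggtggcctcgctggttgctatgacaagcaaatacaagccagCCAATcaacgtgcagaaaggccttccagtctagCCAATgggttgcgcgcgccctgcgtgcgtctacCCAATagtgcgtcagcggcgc
Cdk1: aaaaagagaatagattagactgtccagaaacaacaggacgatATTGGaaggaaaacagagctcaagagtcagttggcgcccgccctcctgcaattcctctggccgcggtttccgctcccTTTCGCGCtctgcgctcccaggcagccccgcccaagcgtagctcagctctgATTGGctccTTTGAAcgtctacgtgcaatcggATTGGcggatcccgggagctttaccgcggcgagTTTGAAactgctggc
Mcm7: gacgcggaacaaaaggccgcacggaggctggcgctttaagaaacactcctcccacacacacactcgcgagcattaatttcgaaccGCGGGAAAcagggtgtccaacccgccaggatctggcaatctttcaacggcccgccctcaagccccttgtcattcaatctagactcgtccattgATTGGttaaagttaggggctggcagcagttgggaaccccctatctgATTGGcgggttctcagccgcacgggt
Cdk4: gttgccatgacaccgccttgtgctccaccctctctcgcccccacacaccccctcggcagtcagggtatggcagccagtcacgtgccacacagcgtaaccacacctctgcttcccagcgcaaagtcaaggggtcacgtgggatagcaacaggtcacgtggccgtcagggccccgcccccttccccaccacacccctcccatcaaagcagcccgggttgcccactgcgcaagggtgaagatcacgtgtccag
The Cdc20 window held 2 CCAAT words and 1 TTTGAA, the Ccnb2 window 3 and 1, and the Cdk1 window 3 and 2 with 1 E2F word. The Mcm7 window held 2 CCAAT words, 1 E2F word and no TTTGAA, and the Cdk4 window had no match to any of them; no matches overlapped. Of the 58 genes 47 had a promoter in the RefSeq table, and where several windows are listed for a gene the first was used. CCAAT on either strand stood in 32 of the 47 windows (68.1%), against 34.5% of all 27025 windows. Those were the windows of the RefSeq table, 1 per gene, not limited to genes on the chips. E2F words stood in 8 (17.0%) against 1.91% of all windows, and TTTGAA in 9 (19.1%) against 16.3%. Between the 27 such genes that were lower by 1.5-fold on the last day and the other 20, the shares lay close together: CCAAT in 66.7% and 70.0%, E2F words in 18.5% and 15.0%, and TTTGAA in 22.2% and 15.0%. A match is a description of the letters in the window.

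Origin licensing genes were lower at e16.5 almost as a group: 10 of 11 lay below every earlier array, all but Mcm6. Of the 11, 8 were lower than at e15.5 by 1.5-fold (median change -0.70), and in the stage trend 4 fell and 0 rose. Over all genes 22.8% lay below every earlier array, 2.38% were lower by 1.5-fold, 17% fell and 11.9% rose. Among genes above the chip median 30.4% lay below every earlier array and 21.8% fell. Mcm7, a subunit of the hexameric replicative helicase, read 7.99 and 8.12 at e16.5, against 9.12 and 9.11 at e15.5, and lay between 9.26 and 9.43 on the 6 arrays of e12.5 to e14.5. Its last-day change was -1.06 ± 0.06 (SE; limma adjusted p = 1.11e-06). The helicase subunit Mcm5 read 8.68 and 8.79 at e16.5, against 9.68 to 9.89 on the 8 arrays of e12.5 to e15.5 (change against e15.5 -0.98 ± 0.06, limma adjusted p = 1.82e-06), but a pair of its other probe sets changed by 0.07 ± 0.07 and 0.02 ± 0.10. Mcm4 was lower already at e15.5: it read 8.73 on both e12.5 arrays, 8.60 and 8.59 at e13.5, 8.52 and 8.53 at e14.5, 8.23 and 8.27 at e15.5, and 7.44 and 7.14 at e16.5. It fell in the stage trend by 1.29 ± 0.28 on the log2 scale (limma adjusted p = 0.0208), and without the e13.5 pool the call was lost.

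Mcm2 and Mcm3, also helicase subunits, were lower on the last day by 1.5-fold. Mcm2 read 7.50 and 7.45 at e16.5, against 8.11 and 8.14 at e15.5, and Mcm3 7.69 and 7.56 against 8.42 and 8.23. Both fell in the stage trend (limma adjusted p = 0.0286 and 0.0320), a call that each lost without the e13.5 or the e16.5 pool. Mcm6 read 6.90 and 6.68 at e16.5, against 6.77 and 6.84 at e15.5, so its groups overlapped (change -0.01 ± 0.09, limma adjusted p = 0.926). Mcm6 was the 1 helicase subunit read from chip C.

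The loading factors showed little before the last day. Cdt1, which brings the helicase to origins, read 7.30 and 7.29 at e16.5, against 8.11 and 8.05 at e15.5 (change -0.79 ± 0.07, limma adjusted p = 1.15e-05), and Cdc6, its partner in loading, 6.50 and 6.54 against 7.25 and 7.30 (change -0.75 ± 0.06, limma adjusted p = 9.03e-06). Geminin (Gmnn), which inhibits Cdt1 after S phase has begun, moved with them: it read 6.91 and 6.80 at e16.5, against 7.47 and 7.42 at e15.5. Orc6, of the origin recognition complex, instead went down at every stage, with pool means of 8.06, 7.91, 7.77, 7.58 and 7.07 from e12.5 to e16.5, and fell in the stage trend by 0.93 ± 0.14 (limma adjusted p = 0.00645). Orc1 of the same complex was dim, at 3.81 and 3.83 at e16.5 against 4.21 and 4.27 at e15.5.

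Genes of nucleotide supply and of the replication fork showed the same last-day step, in 8 of 11 by 1.5-fold, with a median of -0.70. In the stage trend 4 of the 11 fell (Pcna, Rrm1, Pola1 and Prim1) and 0 rose. Over all genes 2.38% were lower by 1.5-fold on the last day, 17% fell and 11.9% rose. Among genes above the chip median 21.8% fell. Pcna, the sliding clamp that holds DNA polymerase on its template, read 8.88 and 9.22 at e12.5, 8.99 and 9.06 at e13.5, 8.92 and 8.80 at e14.5, 8.71 and 8.52 at e15.5, and 7.83 and 7.73 at e16.5. Its decline began before the last day, and it fell in the stage trend by 1.18 ± 0.25 (limma adjusted p = 0.0191), though not without the e13.5 pool. The subunits of ribonucleotide reductase, which makes deoxynucleotides, had similar last-day changes of -0.80 ± 0.07 for Rrm1 and -0.70 ± 0.06 for Rrm2. Rrm1 read 7.44 and 7.39 at e16.5, against 8.25 and 8.19 at e15.5, and Rrm2 6.82 and 6.77 against 7.51 and 7.47. Rrm1 fell in the stage trend (limma adjusted p = 0.0255), but not without the e13.5 or the e16.5 pool.

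Enzymes that start and join new strands were also lower at e16.5. Pola1, the catalytic subunit of DNA polymerase alpha, read 5.94 and 5.87, against 6.85 and 6.65 at e15.5 (change -0.85 ± 0.09), and Lig1, which joins Okazaki fragments, 7.34 and 7.49 against 8.19 and 8.22 (change -0.79 ± 0.07). Pola1 and the primase subunit Prim1 fell in the stage trend (limma adjusted p = 0.0386 and 0.0387), close to the threshold: without any 1 of the 5 pools except e15.5 the Pola1 call was lost, as was that of Prim1 without any 1 pool except e14.5. Thymidine kinase Tk1 had a last-day change of -0.63 ± 0.06 and the clamp loader subunit Rfc4 one of -0.60 ± 0.09. For Rpa2, of the single-strand binding complex, it was -0.21 ± 0.07 (limma adjusted p = 0.0623). Another bright Rpa2 probe set, on chip C, changed by 0.003 ± 0.085 on the last day, and its e16.5 arrays overlapped earlier ones. That probe set did fall in the stage trend (-0.37 ± 0.10, limma adjusted p = 0.0286).

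Fen1, the nuclease that trims Okazaki fragment flaps, had another course. It read 6.51 and 6.53 at e12.5, 6.43 and 6.35 at e13.5, 6.69 and 6.84 at e14.5, 7.17 and 7.06 at e15.5, and 6.31 and 6.26 at e16.5. It was thus highest at e15.5, and its last-day change was -0.83 ± 0.07 (limma adjusted p = 1.39e-05). Thymidylate synthase (Tyms) had a dim probe set on chip C, with 2.50 and 2.77 at e16.5 against 2.52 and 2.43 at e15.5, and its stages overlapped.

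Of 8 G1 and S phase genes, 4 fell in the stage trend (Ccnd1, Ccnd3, Cdk2 and Cdk4) and 1 rose (Ccne2). Only Cdk4 was lower by 1.5-fold on the last day, and the median last-day change was -0.20. Over all genes 17% fell, 11.9% rose and 2.38% were lower by 1.5-fold on the last day. Among genes above the chip median 21.8% fell. Cyclin D3 (Ccnd3), a partner of Cdk4, read 9.77 and 9.84 at e12.5, 9.70 and 9.73 at e13.5, 9.44 and 9.56 at e14.5, 9.27 and 9.20 at e15.5, and 8.83 and 8.84 at e16.5. It fell in the stage trend by 0.97 ± 0.12 (limma adjusted p = 0.00334), and its last-day change was -0.40 ± 0.06, though another bright probe set had no such trend (0.05 ± 0.10). Cdk4, the G1 kinase, read 10.15 and 10.26 at e16.5, against 10.84 and 10.78 at e15.5, and 11.21 and 11.33 at e12.5, and fell in the stage trend by 1.02 ± 0.20 (limma adjusted p = 0.0143), though not without the e16.5 pool.

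Cyclin D1 (Ccnd1), another partner of Cdk4, read between 7.95 and 8.15 on the 6 arrays of e12.5 to e14.5, 7.45 and 7.64 at e15.5, and 7.52 and 7.38 at e16.5, so its e16.5 and e15.5 arrays overlapped (change -0.10 ± 0.08, limma adjusted p = 0.423). It fell in the stage trend by 0.73 ± 0.14 (limma adjusted p = 0.0145), a call lost without the e16.5 pool. Its other probe sets above the chip median differed on the last day: one on chip C changed by -0.52 ± 0.09 (limma adjusted p = 0.00112), with both e16.5 arrays below all earlier ones, and one on chip A by 0.02 ± 0.06. Both of these also fell in the stage trend (changes of -1.13 ± 0.15 and -0.66 ± 0.13, limma adjusted p = 0.00242 and 0.0132). Cyclin D2 (Ccnd2) was steadier, at 6.81 and 6.87 at e16.5 against 7.10 and 7.21 at e15.5, and did not pass in the stage trend. Cdk2, which works with cyclins E and A in S phase, read 6.72 and 6.78 at e16.5, against 7.18 and 7.38 at e15.5, and 7.72 on both e12.5 arrays, and fell by 0.91 ± 0.16 (limma adjusted p = 0.0105).

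By their probe sets with the highest mean, cyclin E1 and E2f1 stayed near one level, and cyclin E2 rose slightly. Cyclin E1 (Ccne1) lay between 7.29 and 7.42 on all 10 arrays and the transcription factor E2f1 between 5.69 and 5.85. A dim second probe set of E2f1 had a last-day change of -0.30 ± 0.08 (limma adjusted p = 0.0224), with both e16.5 arrays below all earlier ones. Cyclin E2 (Ccne2), read from chip C, had 6.54 and 6.55 at e16.5 against 6.32 and 6.17 at e12.5, and rose in the stage trend by 0.32 ± 0.08 (limma adjusted p = 0.0194). That call was lost without the e12.5 pool, without the e13.5 pool or without the first e15.5 array. A dim second probe set of Ccne2, on chip A, had a stage trend of -0.02 ± 0.09 (limma adjusted p = 0.887). Ccne2, Mcm6 and Tyms were the 3 genes read from chip C, and 0 of them were lower by 1.5-fold on the last day. On chip A 28 of 50 were. Over all genes of a chip the share was 1.475% on chip C and 2.956% on chip A. The part of the chip in this difference was not tested.

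Of the 3 inhibitors of cyclin-dependent kinases measured, p21 (Cdkn1a) rose and the others did not pass. Cdkn1a read 7.64 and 7.55 at e12.5, 7.93 and 7.99 at e13.5, 7.99 and 8.05 at e14.5, 8.11 and 8.12 at e15.5, and 8.31 and 8.28 at e16.5. It rose in the stage trend by 0.62 ± 0.11 (limma adjusted p = 0.0117), with its steepest step before e13.5, and the call was lost without the e12.5 or the e16.5 pool. Its second probe set above the chip median rose by 0.71 ± 0.18 (limma adjusted p = 0.0330). The inhibitor p18 (Cdkn2c) had 5.73 and 5.64 at e16.5 against 5.47 and 5.43 at e12.5 (stage trend 0.28 ± 0.10, limma adjusted p = 0.0748). The inhibitor p27 (Cdkn1b) had a dim probe set that lay between 3.78 and 3.95 on all arrays.

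**Figure D4:**
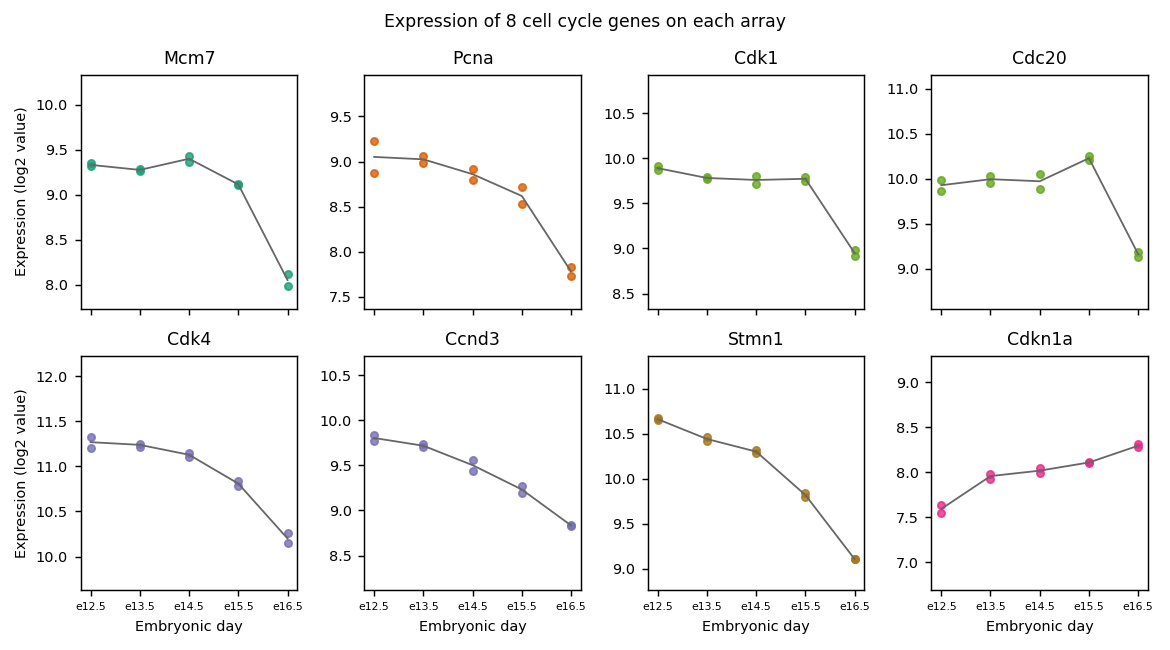
Log2 values (vertical axis; each panel spans the same range of log2 units) of 8 cell cycle genes by stage (horizontal axis), with a point for each of the 2 arrays of a stage and a line through the pool means. Mcm7, Cdk1 and Cdc20 drop on the last day, Cdk4, Ccnd3, Pcna and Stmn1 decline before it too, and Cdkn1a goes up.

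Of 9 regulators of mitotic entry and exit, 8 lay below every earlier array at e16.5, all but Cdc25b. Of the 9, 5 were lower by 1.5-fold on the last day (Ccnb2, Cdk1, Plk1, Aurka and Cdc20), with a median last-day change of -0.60, while the median difference e15.5 minus e12.5 was 0.03. That difference ran up to 0.33 for Cdc25b, 0.30 for Cdc20 and 0.23 for Ccna2. None of the 9 passed the stage trend, in which 17% of all genes fell and 11.9% rose. The shares over all genes were 22.8% below every earlier array and 2.38% lower by 1.5-fold on the last day. Cdc20, which activates the anaphase-promoting complex, read 9.14 and 9.19 at e16.5, against 10.21 and 10.25 at e15.5, and lay between 9.87 and 10.06 on the 6 earlier arrays. It was highest on the day before it was lowest, with a last-day change of -1.06 ± 0.07 (limma adjusted p = 3.28e-06).

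Cyclin B2 (Ccnb2), which activates Cdk1, read 8.85 and 8.67 at e16.5, against 9.52 to 9.70 on the 8 arrays up to e15.5 (change against e15.5 -0.90 ± 0.07, limma adjusted p = 8.51e-06). Cdk1 itself read 8.98 and 8.91 at e16.5, against 9.72 to 9.91 on those 8 arrays (change -0.83 ± 0.06, limma adjusted p = 5.48e-06). Aurora kinase A (Aurka), which matures centrosomes, read 6.42 and 6.43 at e16.5, against 7.28 and 7.15 at e15.5 (change -0.79 ± 0.06). In each of these genes the gap between e16.5 and the nearest earlier array was wider than the whole spread of the earlier arrays.

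Smaller changes were seen in the rest of the group. Polo-like kinase Plk1 read 8.37 and 8.45 at e16.5, against 9.01 on both e15.5 arrays, and cyclin A2 (Ccna2), used in S phase and G2, 8.58 and 8.76 against 9.10 on both. Aurora kinase B (Aurkb), of the chromosomal passenger complex, had a last-day change of -0.30 ± 0.06, and the Cdk1-activating phosphatase Cdc25c one of -0.31 ± 0.07. Its relative Cdc25b did not go down: it read 7.23 and 7.33 at e16.5, against 7.42 and 7.25 at e15.5, and lay between 6.84 and 7.01 on the 4 arrays of e12.5 and e13.5 (stage trend 0.41 ± 0.13, limma adjusted p = 0.0576).

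All 4 spindle checkpoint genes lay below every earlier array at e16.5, and 3 (Bub1, Bub1b and Mad2l1) were lower than at e15.5 by 1.5-fold (median of the 4, -0.80). In the stage trend 3 fell, namely Bub1, Bub1b and Ttk. The shares over all genes were 22.8% below every earlier array, 2.38% lower by 1.5-fold on the last day and 17% falling. The checkpoint kinase Bub1 read 4.80 and 4.97 at e16.5, against 5.68 and 5.76 at e15.5, and 6.08 and 6.29 at e12.5, and fell by 1.16 ± 0.26 (limma adjusted p = 0.0213), a call lost without the e13.5 or the e16.5 pool. Bub1b (BubR1), which inhibits Cdc20, read 6.80 and 6.46 at e16.5, against 7.54 and 7.55 at e15.5, and 8.09 and 7.90 at e12.5. Its arrays from e13.5 to e15.5 lay between 7.54 and 7.64, so it stepped down on the first day and on the last; it fell by 1.09 ± 0.24 (limma adjusted p = 0.0149), though not without the e12.5 or the e16.5 pool. Mad2l1, the checkpoint protein that binds Cdc20, read 6.81 on both e16.5 arrays, against 7.45 to 7.65 up to e15.5. Ttk, the kinase that starts checkpoint signalling, declined earlier: its pool means were 7.24, 7.06, 7.02, 6.63 and 6.32 from e12.5 to e16.5, and it fell by 0.91 ± 0.13 (limma adjusted p = 0.00481).

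All 12 genes of chromosomes, kinetochores and the spindle lay below every earlier array at e16.5. Of these 5 were lower than at e15.5 by 1.5-fold (Stmn1, Top2a, Birc5, Cenpa and Cenpf), with a median last-day change of -0.57 for the 12. In the stage trend 5 fell (Stmn1, Cenpe, Cenpf, Kif20a and Tpx2). The shares over all genes were 22.8% below every earlier array, 2.38% lower by 1.5-fold on the last day and 17% falling. Among genes above the chip median 21.8% fell. Stathmin (Stmn1), which destabilises microtubules and is also abundant in neurons, read 10.65 and 10.67 at e12.5, 10.42 and 10.46 at e13.5, 10.28 and 10.32 at e14.5, 9.79 and 9.84 at e15.5, and 9.11 on both e16.5 arrays. It fell in the stage trend by 1.49 ± 0.20 (limma adjusted p = 0.00427), with no overlap between any 2 stages. The mean of 8 measured neural crest, neuron and Schwann cell markers went down alongside it, at 6.25 and 6.19 on the e16.5 arrays against 7.20 and 7.11 on the e12.5 arrays. Of the 8 markers 5 fell in the stage trend and 1 rose, against 17% and 11.9% of all genes. The part of these markers in the fall of Stmn1 was not tested.

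Topoisomerase Top2a, which untangles sister chromatids, read 7.10 and 6.99 at e16.5, against 7.91 to 8.16 on the 8 arrays up to e15.5 (change -0.92 ± 0.07, limma adjusted p = 7.53e-06). Survivin (Birc5), of the chromosomal passenger complex, read 7.64 on both e16.5 arrays, against 8.30 and 8.22 at e15.5, and the centromeric histone Cenpa 6.38 and 6.44 against 7.11 and 7.08. Mki67, the gene of the Ki-67 proliferation antigen, had a smaller change: it read 7.67 and 7.47 at e16.5, against 7.95 and 7.98 at e15.5 (change -0.39 ± 0.07, limma adjusted p = 0.00287), and lay between 7.92 and 8.04 on the arrays of e12.5 to e14.5. The kinetochore protein gene Cenpf had a last-day change of -0.61 ± 0.07 and Stmn1 one of -0.71 ± 0.06. Those of the remaining 6 genes of the group lay between -0.57 ± 0.08 for Tpx2, which activates Aurora A, and -0.44 ± 0.08 for the chromosome-bound motor Kif22. Between them lay Kif11, a motor that separates the poles (-0.56 ± 0.07), the midzone proteins Prc1 (-0.55 ± 0.06) and Kif20a (-0.52 ± 0.06), and Cenpe (-0.48 ± 0.07). Kif20a fell in the stage trend (limma adjusted p = 0.0112), a call lost without the e16.5 pool.

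A step on the first day was seen in a few kinetochore and spindle genes. Cenpe, a kinetochore motor, read 8.39 and 8.31 at e13.5, against 8.97 and 8.93 at e12.5, and Tpx2 7.23 and 7.02 against 7.85 and 7.66. With changes of -0.60 and -0.63 (limma adjusted p = 9.25e-05 and 0.000191) these were the 2 of 58 genes lower by 1.5-fold at e13.5 than at e12.5, where 0.646% of all genes were, and both lost their stage trend call without the e12.5 or the e16.5 pool. Cenpf read 7.16 and 7.03 at e13.5, against 7.59 on both e12.5 arrays. These genes and Bub1b are 4 of the 5 read from chip B, whose median first-day change was -0.50; that of the 50 genes on chip A was -0.07, and that of all chip B genes 0.01. Of all chip B genes 1.43% were lower by 1.5-fold on the first day, against 0.231% on chip A, and the part of the chip in this step was not tested.

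Between other neighbouring stages the 58 genes moved little. At 2-fold 0 of them were called in either direction at e13.5 against e12.5, where 0.125% of all genes were higher and 0.0627% lower (limma), at e14.5 against e13.5 (0.151% and 0.0251%) or at e15.5 against e14.5 (0.470% and 0.0753%). At 1.5-fold 0 were higher at e13.5 against e12.5, where 0.439% of all genes were. At that minimum 0 were called in either direction at e14.5 against e13.5, where 0.458% of all genes were higher and 0.345% lower, or at e15.5 against e14.5, where 1.4% were higher and 0.69% lower. Against the mean of both end stages, Mcm7 was the 1 gene higher at e14.5 by 1.5-fold (change 0.71), where 0.602% of all genes were, and 0 were lower (0.621% of all genes). At 2-fold 0 were called, against 0.107% of all genes higher and 0.207% lower. The Mcm7 pool means were 9.33 at e12.5, 9.40 at e14.5 and 8.05 at e16.5, so its call came mostly from the low e16.5 pool.

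Over 1 probe set was named for 30 of the genes, and the values above are from the one with the highest mean. Of the other 46 probe sets 20 lay above the chip median. Of these 20, 13 were lower at e16.5 than at e15.5, and 5 were lower by 1.5-fold. Of all genes above the chip median 58.7% were lower on the last day, and 3.41% were lower by 1.5-fold. Other probe sets showed as large or larger last-day changes for Kif20a (-1.38 ± 0.08), Cdk4 (-0.87 ± 0.06), Mcm3 (-0.83 ± 0.08), Plk1 (-0.80 ± 0.07) and Aurkb (-0.64 ± 0.08). Smaller last-day changes than those above came from other probe sets of Tk1 (-0.37 ± 0.07 and -0.11 ± 0.07), Plk1 (-0.15 ± 0.07) and Kif11 (-0.14 ± 0.07). The same held for Tpx2 (-0.26 ± 0.08) and Cdt1 (-0.43 ± 0.09), and for the other probe sets of Mcm5 and Rpa2 given above. The bright second probe set of Ccnd3, on chip B, had a last-day change of 0.10 ± 0.07. Its stage trend was 0.05 ± 0.10 (limma adjusted p = 0.744) and that of the bright second probe set of Tpx2 was -0.53 ± 0.23 (limma adjusted p = 0.130), so neither passed. A dim second probe set of Mki67 ran the other way, with a stage trend of 0.42 ± 0.12 (limma adjusted p = 0.0501).

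Cell cycle genes outside the 58, taken from lists by pathway, also had negative median changes on the last day. Of 124 measured (129 listed) 30 were lower by 1.5-fold on the last day and 0 higher, against 2.38% and 0.891% of all genes. In the stage trend 40 fell and 6 rose (17% and 11.9% of all genes), and 78 lay below all earlier arrays (22.8% of all genes). The median last-day change was -0.33. Among 39 other replication genes 14 fell, 2 rose and 7 were lower by 1.5-fold on the last day (median -0.37). The largest passing falls in the stage trend were Cdc7, the kinase that fires origins (-1.55 ± 0.20, limma adjusted p = 0.00334), the helicase cofactor Gins4 (-1.23 ± 0.24), the replication checkpoint protein Topbp1 (-1.06 ± 0.24) and the fork protein Timeless (-1.01 ± 0.19).

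Among 54 other mitosis genes 18 fell, 1 rose and 19 were lower on the last day by 1.5-fold (median -0.47). The largest passing falls were those of the microtubule-depolymerising motor Kif2c (-1.17 ± 0.15), the central spindle motor Kif23 (-1.14 ± 0.27), the cohesin subunit Smc3 (-1.03 ± 0.24) and the cytokinesis protein Anln (-1.03 ± 0.28). Among 31 other regulators of Rb, E2F and G1, 8 fell and 3 rose, and 4 were lower on the last day by 1.5-fold (median -0.13). Of all genes 17% fell, 11.9% rose and 2.38% were lower by 1.5-fold on the last day. Of genes above the chip median 21.8% fell and 12.6% rose, so the trend counts of these regulators lay near those shares. Cyclin G2 (Ccng2; -1.45 ± 0.17), the transcription factor E2f3 (-1.44 ± 0.28) and Skp2, which targets p27 for degradation (-1.41 ± 0.30), fell, and Ccng1, a target gene of p53 read from a dim probe set, rose by 1.01 ± 0.17 (limma adjusted p = 0.00825).

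Markers of the cell types in the tissue moved over the same days, and their part in the cell cycle results was not tested. All 10 acinar markers rose in the stage trend, with a list mean of 12.24 and 12.20 on the e16.5 arrays, against 10.96 and 10.95 at e15.5 and 6.92 and 6.91 at e12.5, and 6 of the 10 were higher by 1.5-fold on the last day. Of 10 leukocyte markers 4 were higher by 1.5-fold on the last day (S100a8, S100a9, Lyz2 and C1qa), and 0 of the 10 changes were negative. The list mean was 6.29 and 6.30 at e16.5, against 5.38 and 5.33 at e15.5. The neutrophil protein gene S100a8 averaged 8.70 at e16.5, against 5.86 at e15.5, the sharpest last-day rise of that list. The mean of 10 mesenchyme markers was 7.79 and 7.83 at e16.5, against 7.97 and 7.92 at e15.5 and 8.63 and 8.73 at e12.5, with 5 falling and 1 rising. The mean of 8 measured red cell markers was 7.72 and 7.73 at e16.5, against 8.19 and 8.20 at e15.5, with 3 falling and 2 rising. That drop lay in the embryonic globins Hbb-y and Hba-x: Hbb-y averaged 7.51 at e16.5, against 10.03 at e15.5, and Hba-x 6.39 against 8.39. A further embryonic globin of the list, Hbb-bh1, had a last-day change of -0.02 ± 0.07 (limma adjusted p = 0.877). The last-day change was positive in 5 of the 8, up to 0.29 ± 0.06 for the heme synthesis gene Alas2, and its median was 0.09. Of 9 pancreatic epithelium markers 4 rose and 1 fell, of 10 endocrine markers 4 rose and 2 fell, and of 10 endothelial markers 2 rose and 3 fell. On the last day 6 of the 9 epithelium markers changed downwards, 2 of them by 1.5-fold (Nkx2-2 and Pdx1), and 0 were higher by 1.5-fold. Their list mean was 7.06 and 7.08 at e16.5, against 7.25 on both e15.5 arrays. By 1.5-fold 1 endocrine marker was higher and 1 lower on the last day. Of all genes 11.9% rose and 17% fell in the stage trend. On the last day 0.891% were higher by 1.5-fold and 2.38% lower.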

How the data were processed

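The authors summarised the scans with RMA and deposited a log2 value for each probe set on each array, per the submitters' processing notes; that the base is 2 was read from the span of the values. RMA normalizes arrays by quantiles, which removes any overall change in RNA per cell. Each chip was treated as normalized on its own, and no level was tested between chips. The values are not counts, and the number of arrays limits the precision.

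Of 36701 probe sets, 29131 had 1 symbol in the platform annotation, updated through Entrez identifiers to RefSeq. Each gene was read from its probe set with the highest mean on its chip. Whole chips were tested with limma 3.58.1 (R 4.3.3), with Benjamini-Hochberg adjustment over the 3 chips together; the functions were checked on simulated data. The stage trend is a line through 5 pool means, and contrasts took stage as a factor. Calls between stages used 2-fold as the planned minimum and 1.5-fold as its alternative.

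The reaction numbers did not pair the arrays: over 10 pairs of stages a chip, the median correlation of deviations of same-numbered arrays was -0.01 on chip A, 0.02 on chip B and -0.00 on chip C. The genes and lists were chosen with earlier results of these data known. Any of the 58 genes could be named. Of other cell cycle lists, up to 4 genes with the largest passing slope could be named, and of marker lists up to 3 with the largest slope. The leukocyte genes called on the last day, and the globin Hbb-bh1, were named after their values were seen. Alternatives were other scalings, filters, variance priors, p-value adjustments, probe sets, fold minimums, treatments of reactions, and leaving out each array or pool. Promoter sequences come from RefSeq on GRCm38.p6; the array files name no build.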

Additional observations from a re-analysis of the deposited data

How the results depend on the processing

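The count of genes falling in the stage trend ranged from 8 to 26 and of genes rising from 0 to 3 when each array or pool was left out, and the median change from -0.80 to -0.13; the lowest falling count and the median nearest 0 came without the e16.5 pool. With the reaction number as a replicate block on 10 arrays, 36 fell and 4 rose (24.9% and 22.2% of all genes), and with the pool as a random block 33 fell and 4 rose (21.7% and 16.8%). Asking for a fitted 1.5-fold change left 1 riser. The replicate block kept the last-day counts at 2 for 2-fold and 30 for 1.5-fold. At e16.5 against e15.5, 2-fold calls numbered 0 after quantile normalization again and 2 to 3 when single arrays were left out. Without single arrays the 1.5-fold count lay between 27 and 32. At e16.5 against e12.5, 36 were lower and 1 higher at 1.5-fold, and 49 lower and 4 higher with no fold minimum (29.4% and 28.2% of all genes). At 1.5-fold, 2 were lower at e13.5 against e12.5, 30 lower at e16.5 against e15.5 and 1 higher at e14.5 against both ends. With no fold minimum, and with the share of all genes in brackets, 1 was higher (6.93%) and 5 lower (7.70%) at e13.5 against e12.5, and 2 were higher (1.82%) at e14.5 against e13.5. Likewise 2 were higher (7.09%) and 9 lower (6.88%) at e15.5 against e14.5, 47 lower (17.0%) at e16.5 against e15.5, and 33 higher (9.07%) at e14.5 against both ends. The comparison with both ends includes the e16.5 pool, which was the lowest for 50 of the 58 genes. Genes above all earlier arrays at e16.5 numbered 2 after quantile normalization, 2 with the probe set of largest variance, and 1 to 3 without single arrays. The 1.5-fold count in the last-day comparison under other scalings, and the counts of arrays below or above all earlier ones, were added after the data were seen.

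Fitted stage-trend changes (slope times 4 days) of genes that did not pass changed sign under some settings, and the cause was not tested. After quantile normalization again Ccne1 had 0.061 and Tyms -0.024, and after median centring Cdkn1b had 0.033 and Ccne1 0.013. With the probe set of largest variance E2f1 had -0.15, Cdkn1b 0.065, Mki67 0.42 and Ccne1 0.20. When each array or pool was left out, these changes ranged from -0.83 to 0.020 for Aurka, -0.31 to 0.089 for Aurkb, -0.54 to 0.096 for Birc5, -0.16 to 0.38 for Ccna2, -0.93 to 0.17 for Ccnb2, -0.084 to 0.030 for Ccne1 and -0.90 to 0.35 for Cdc20. They ranged from -0.29 to 0.0069 for Cdc25c, -0.64 to 0.19 for Cdc6, -0.058 to 0.033 for Cdkn1b, -0.0079 to 0.087 for E2f1, -0.17 to 0.87 for Fen1, -0.44 to 0.25 for Gmnn and -0.36 to 0.086 for Kif22. They ranged from -0.83 to 0.13 for Mad2l1, -0.39 to 0.17 for Orc1, -0.71 to 0.013 for Plk1, -0.66 to 0.018 for Prc1, -0.49 to 0.13 for Rfc4 and -0.099 to 0.12 for Tyms. The upper value of Cdc20 came without the e16.5 pool.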
